A study of Mus musculus with 36 samples.

Results

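The Ly6 genes Ly6a, Ly6c1, Ly6d, Ly6e and Ly6g6c were followed over wound healing in the progeny of 2 mouse hair follicle stem cell populations. They were taken by name, by a rule that holds no measured value but was set with earlier results of these data known. All 5 were listed in the count tables of both populations, and all 5 passed the filter on low counts in each, out of 23903 genes listed in either table. Tail skin of adult Lrig1-EGFP-ires-CreERT2 or Lgr5-EGFP-ires-CreERT2 mice, both carrying Rosa26-fl/STOP/fl-tdTomato, was treated once with topical hydroxytamoxifen before wounding, so that cells with an active Lrig1 or Lgr5 promoter at that time, and their progeny, kept the red label. These genetically labelled (GL) cells are called Lrig1 GL and Lgr5 GL. Mice were labelled at 6 to 8 weeks of age, and both sexes were used. Sorted tdTomato+ cells were taken from unwounded skin (0w), at 1, 2, 4 and 8 weeks after a first full-thickness wound (named 1w pw1 to 8w pw1), and at 1 week after a second wound made over the first one at 8 weeks (1w pw2), with 3 libraries from separate mice in each of the 12 groups. The controls therefore carried the same alleles and received the same hydroxytamoxifen. Mice at later time points were older than those at 0w, and no unwounded mice of matching age were among the 12 groups. A change from 0w therefore cannot be told apart from a change with age or with time since labelling. Cells of the wound bed and of follicles distal to it were sorted together, the label follows descent and not present identity, and each library was amplified from a small pool of cells by a Smart-seq2 type protocol.

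Ly6 proteins are small, cysteine-rich proteins of the Ly6/uPAR fold that are held at the outer face of the cell membrane by a glycosylphosphatidylinositol (GPI) anchor. Ly6a encodes Sca-1, an antigen used to sort stem and progenitor cells of blood and, in mouse skin, keratinocytes of the upper hair follicle and interfollicular epidermis. Ly6a, Ly6c1 and Ly6e are known as interferon-induced genes, Ly6c1 marks subsets of leukocytes and endothelial cells, Ly6e restricts the entry of several viruses, Ly6d is a marker of stratified epithelium and of early B cells, and Ly6g6c lies in the major histocompatibility complex class III region.

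On the GRCm38 build, with GENCODE M21 coordinates, 4 of the 5 genes lie in the Ly6 cluster of chromosome 15: Ly6d at chr15:74762056-74763620 (minus strand), Ly6e at chr15:74955051-74959905 (plus strand), Ly6a at chr15:74994877-74998031 (minus strand) and Ly6c1 at chr15:75044018-75048830 (minus strand). Ly6g6c lies at chr17:35065388-35070050 on the plus strand, where 22 of its exon bases, 1.61% of them, overlap Mpig6b on the opposite strand. The libraries did not mark strand, so reads from those 22 bases cannot be assigned to either gene. Within the cluster, near-identical copies share reads: 32.8% of the 50-base words in the exons of Ly6c1 also occur in another gene, 21.5% in Ly6c2 and 11.1% in Ly6a, and 19.0% of those in Ly6a occur elsewhere, 15.0% in Ly6c1. Ly6d, Ly6e and Ly6g6c share no such word with any other gene. The first 300 bases of the coding sequences of Ly6c1 (Ly6c1-201, exons within chr15:75045402-75048511, minus strand) and of its neighbour Ly6c2 (Ly6c2-201, exons within chr15:75108543-75111667, minus strand) are shown because counts of one cannot be fully separated from counts of the other. Capitals mark the bases, 234 of these 300, in stretches of at least 50 bases that are identical in both.
Ly6c1: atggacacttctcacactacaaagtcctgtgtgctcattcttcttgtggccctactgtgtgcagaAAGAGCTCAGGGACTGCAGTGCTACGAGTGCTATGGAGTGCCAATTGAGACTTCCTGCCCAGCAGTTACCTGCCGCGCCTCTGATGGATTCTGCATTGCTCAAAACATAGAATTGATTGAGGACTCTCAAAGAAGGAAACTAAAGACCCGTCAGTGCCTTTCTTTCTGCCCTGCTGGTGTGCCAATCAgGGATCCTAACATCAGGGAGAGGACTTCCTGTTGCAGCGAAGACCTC
Ly6c2: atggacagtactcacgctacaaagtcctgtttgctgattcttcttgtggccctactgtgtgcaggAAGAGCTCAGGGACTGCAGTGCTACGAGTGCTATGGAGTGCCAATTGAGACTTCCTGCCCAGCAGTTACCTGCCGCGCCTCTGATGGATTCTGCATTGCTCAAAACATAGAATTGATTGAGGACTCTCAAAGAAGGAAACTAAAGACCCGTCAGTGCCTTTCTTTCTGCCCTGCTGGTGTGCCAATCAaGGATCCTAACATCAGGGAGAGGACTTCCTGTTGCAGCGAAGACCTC
The whole coding sequences are identical at 387 of 396 positions (97.7%), and the Ly6a and Ly6c1 coding sequences at 82.8% of aligned positions, while each of the other pairs among the 5 genes is identical at 49.9 to 56.4%. The first 300 bases of the Ly6a coding sequence (Ly6a-201, exons within chr15:74995262-74997604, minus strand) are shown in lower case, as Ly6a holds no stretch of 50 coding bases that is shared with Ly6c1.
Ly6a: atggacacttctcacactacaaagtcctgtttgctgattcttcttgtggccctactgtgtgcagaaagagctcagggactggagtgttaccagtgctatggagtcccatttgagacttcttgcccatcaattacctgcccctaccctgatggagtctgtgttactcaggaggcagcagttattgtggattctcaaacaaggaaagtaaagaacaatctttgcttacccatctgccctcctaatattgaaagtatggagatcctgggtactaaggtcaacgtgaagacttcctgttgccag
Values of Ly6a and Ly6c1 are therefore uncertain to the extent that multi-mapped reads were lost or assigned between these copies, and Ly6c1 more than Ly6a.

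Total counts ran from 765252 to 3365666 in the Lrig1 GL libraries and from 1297798 to 6960537 in the Lgr5 GL libraries. Levels are given as CPM, each gene's count scaled to a common library size, on 1 scale set by trimmed-mean normalisation over all 36 libraries, on which 3 counts, the smallest amount taken as detected, correspond to 0.891 to 3.01 CPM in Lrig1 GL and 0.434 to 3.44 CPM in Lgr5 GL. The non-coding gene Gm12415 made up 12 to 52.1% of all reads counted in an Lgr5 GL library but no more than 0.000212% in any from Lrig1 GL, and the populations were deposited as separate tables, so a difference between populations cannot be told apart from a difference between 2 sets of libraries. A gene is called changed where edgeR's quasi-likelihood test gave a Benjamini-Hochberg adjusted p under 0.05 over all genes tested and the fitted log2 fold change was above 1 in size. In sorted pools, fewer cells of a type and less RNA per cell cannot be told apart.

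Per kilobase of exon, Ly6d had the highest level in both populations, with medians over 18 libraries of 5456 CPM per kilobase in Lrig1 GL and 1187 CPM per kilobase in Lgr5 GL. In Lrig1 GL the median levels per kilobase then followed in the order Ly6a (384), Ly6g6c (186), Ly6e (89.9) and Ly6c1 (43.0). In Lgr5 GL the order was Ly6g6c (208), Ly6a (49.5), Ly6e (44.1) and Ly6c1 (3.31). Keratinocyte markers were present in all groups, with summed levels of 8 genes from 13452 to 41598 CPM.

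**Figure D1:**
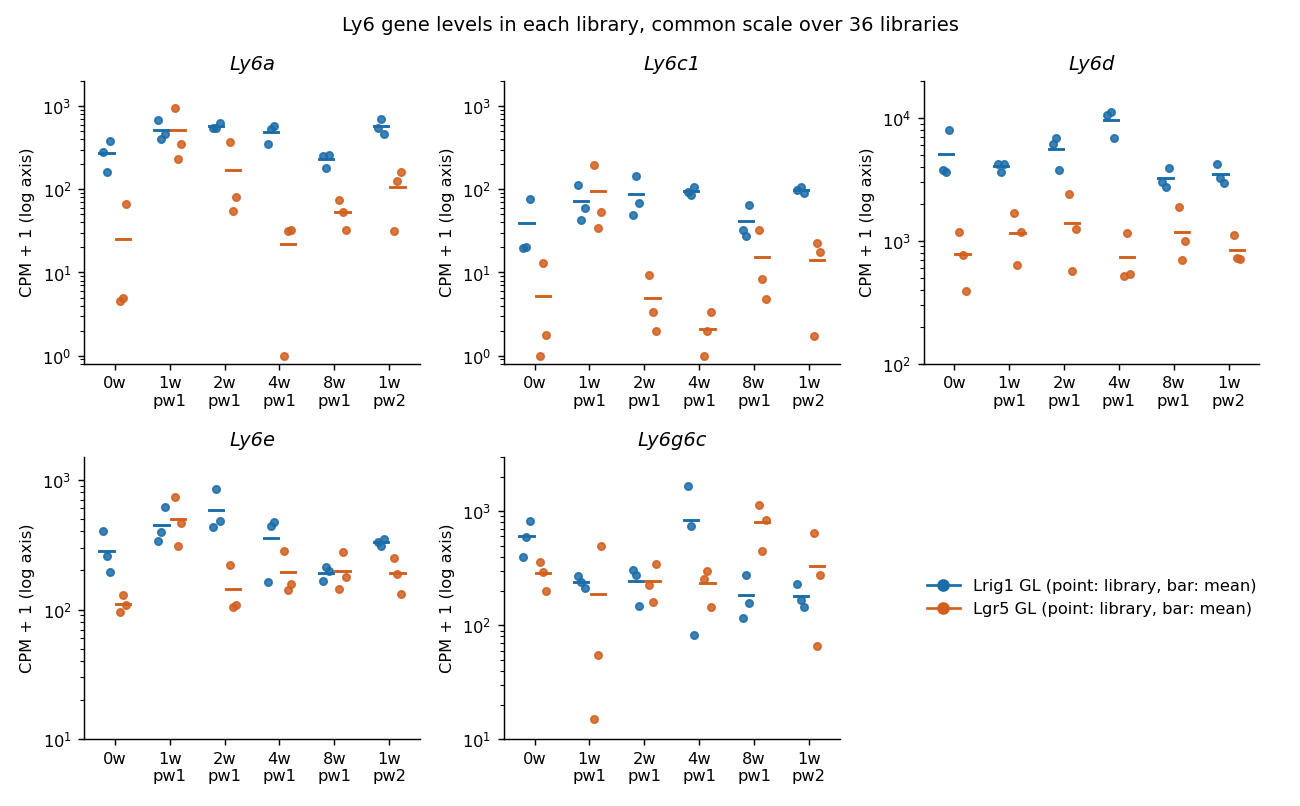
Level of each Ly6 gene in each library (CPM + 1 on a log axis, 1 scale over 36 libraries) by time point; points are libraries, bars are means of 3, blue is Lrig1 GL and orange Lgr5 GL. Ly6a, Ly6c1 and Ly6e in Lgr5 GL are highest at 1w pw1, where they meet the Lrig1 GL levels. Ly6e meets them at 8w pw1 as well, while Ly6d stays lower in Lgr5 GL at every time point.

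Before injury, each of the 5 transcripts stood higher in every Lrig1 GL library than in any Lgr5 GL library. Ly6a was measured at 162, 282 and 376 CPM in Lrig1 GL, and at 3.55, 3.90 and 65.4 CPM in Lgr5 GL, so that 1 of the Lgr5 GL libraries was above the other two and still below all of Lrig1 GL. The fitted difference was a log2 value of 3.52 (SE 0.89, adjusted p = 0.0266). Ly6d, the stratified epithelium marker, stood at 3627, 3739 and 8044 CPM in Lrig1 GL against 388, 763 and 1188 CPM in Lgr5 GL, a log2 difference of 2.72 (SE 0.48, adjusted p = 0.00148). These were the members called at 0w, 2 of 5, against 1.1% of the 16153 genes tested that were called higher in Lrig1 GL. Ly6c1 (log2 difference 3.10, SE 1.07, adjusted p = 0.115), Ly6e (1.36, SE 0.41, adjusted p = 0.0644) and Ly6g6c (1.08, SE 0.81, adjusted p = 0.521) did not pass. In all 5 genes every Lrig1 GL library lay above every Lgr5 GL library, as did 6.75% of all genes tested. Fibroblast markers (8 genes, 7 of them in both tables) summed to 41.3 to 123 CPM in Lrig1 GL and 620 to 879 CPM in Lgr5 GL at 0w, and differentiated interfollicular epidermis markers (10 genes) to 6180 to 24822 CPM against 1417 to 3671 CPM. Their part in the difference was not tested. Leaving out 1 library ended the Ly6a call in 4 cases, without Lrig1 GL 0w replicate 1 (adjusted p = 0.0588) or 3 (0.0611) and without the first (0.109) or second (0.12) listed Lgr5 GL 0w library. The Ly6d call at 0w held with any library left out.

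One week after the first wound the Ly6a, Ly6c1 and Ly6e levels of Lgr5 GL cells were above those of unwounded skin in every library. Ly6a stood at 233, 348 and 955 CPM at 1w pw1 against 3.55, 3.90 and 65.4 CPM at 0w. Every wounded library lay above every unwounded one. The fitted log2 fold change of 4.41 (SE 1.16, 95% interval 1.97 to 6.85) had an adjusted p of 0.0634 and was not called.

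Ly6c1 stood at 32.8, 52.1 and 195 CPM at 1w pw1 against 0, 0.770 and 11.9 CPM at 0w. In counts these were 51 to 522 reads at 1w pw1 and 0, 2 and 52 reads at 0w, so the baseline rests on 1 library. The log2 fold change of 4.38 (SE 1.40) was not called (adjusted p = 0.113). Ly6e stood at 305, 459 and 729 CPM against 95, 107 and 128 CPM, with a tight baseline. Ly6e rose, with a log2 fold change of 2.15 (SE 0.41, adjusted p = 0.0197). It was the 1 member called in this comparison, where 0.427% of the 18025 genes tested were called higher, and the 3 members whose libraries did not overlap compare with 9.98% of all genes tested that were higher without overlap.

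In the same comparison Ly6d and Ly6g6c were not called. Ly6d stood at 629, 1182 and 1676 CPM at 1w pw1, around its 0w values. Ly6g6c stood at 14.2, 54.0 and 497 CPM at 1w pw1 against 199, 293 and 359 CPM at 0w, so that 2 libraries lay below all of 0w and 1 above. The library with 955 CPM of Ly6a is the same one that holds the highest Ly6c1, Ly6d and Ly6e and the lowest Ly6g6c values of its group; by its plain library total its Ly6a level is 555 CPM, and Gm12415 took 49.7% of its counts. Without it the Ly6a log2 fold change was 3.62 (adjusted p = 0.173) and that of Ly6e was 1.79 (adjusted p = 0.0843). Ly6e also lost its call without the first (adjusted p = 0.0700) or the second (adjusted p = 0.0659) listed 0w library. Ly6a instead gained a call, with a log2 fold change of 7.04 (adjusted p = 0.0200), without the 0w library at 65.4 CPM, and a narrow one (adjusted p = 0.0476) without the 4w pw1 library at 0 counts.

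Lists of markers of other cell types were read beside these genes, and in none of them did all 3 wounded libraries lie above the unwounded ones. In Lgr5 GL the fibroblast markers summed to 620 to 879 CPM at 0w and 392 to 515 CPM at 1w pw1. Endothelial markers summed to 5.05 to 19.2 CPM and 6.76 to 30.9 CPM, with overlapping ranges. Of the leukocyte lists, 1 of 7 T cell markers and 2 of 8 macrophage, dendritic and Langerhans cell markers were in the Lgr5 table, at no more than 0.748 CPM and 4.50 CPM at 1w pw1. Melanocyte markers (4 of 6 in the table) went from a sum of between 70.7 and 90.2 CPM to between 11.2 and 19.9 CPM, and the part of the fibroblast and melanocyte values in the result was not tested.

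At later times after the first wound the 3 genes were nearer to their 0w values. Ly6a in Lgr5 GL stood at 53.8, 79.6 and 368 CPM at 2w pw1, at 0, 30.7 and 31.6 CPM at 4w pw1, and at 31.4, 51.7 and 73.5 CPM at 8w pw1. The library at 0 counts allows up to 3.44 CPM, counting error only. Ly6c1 stood at 0.964, 2.38 and 8.30 CPM at 2w pw1, at 0, 0.960 and 2.31 CPM at 4w pw1, which is 0 to 3 reads, and at 3.80, 7.30 and 31.4 CPM at 8w pw1. Ly6e stood at 104, 107 and 219 CPM at 2w pw1, at 140, 157 and 282 CPM at 4w pw1 and at 143, 177 and 274 CPM at 8w pw1. None of the members was called at these times against 0w, where 0, 28 and 0 of 18025 genes were called (0, 0.155 and 0%), while an unadjusted p below 0.05 was seen for 1584, 1936 and 1070 genes. Ly6e at 4w pw1 (log2 fold change 0.74, SE 0.39) and at 8w pw1 (0.85, SE 0.39) lay above all 0w libraries without passing the test (adjusted p = 0.526 and 0.819), as 6.62 and 6.49% of genes did.

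A week after the second wound the same 3 genes in Lgr5 GL lay below their level a week after the first. Ly6a stood at 30.1, 125 and 159 CPM at 1w pw2, Ly6c1 at 0.723, 16.7 and 21.6 CPM and Ly6e at 130, 187 and 249 CPM. For each of them every library at 1w pw2 lay below every library at 1w pw1, which 11% of all genes tested showed. By plain library total the Ly6e groups overlapped, with 247 CPM in 1 library at 1w pw2 and 231 CPM in 1 at 1w pw1. The log2 fold changes were -2.29 for Ly6a (SE 1.05, adjusted p = 0.281), -2.84 for Ly6c1 (SE 1.29, adjusted p = 0.280) and -1.39 for Ly6e (SE 0.40, adjusted p = 0.116). None was called, against 0.266% of genes. Against 8w pw1, the state from which the second wound started, the differences were 1.00 (SE 1.02), -0.09 (SE 1.24) and -0.08 (SE 0.39) on the log2 scale, with all libraries overlapping. No gene was called in that comparison, where 691 genes had an unadjusted p below 0.05. Against 0w, the log2 fold changes at 1w pw2 were 2.12 for Ly6a (SE 1.06, adjusted p = 0.805), 1.54 for Ly6c1 (SE 1.28, adjusted p = 0.982) and 0.77 for Ly6e (SE 0.39, adjusted p = 0.811). No gene was called there either, and 1157 had an unadjusted p below 0.05. Ly6e lay above all 0w libraries on the scale of 36 libraries, but overlapped in its own population's scaling.

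Over the whole Lgr5 GL time course Ly6e was the 1 of 5 members called (adjusted p = 0.0414), against 1.13% of genes. This call is near the threshold, and 14 of the 18 ways of leaving out a library ended it (adjusted p from 0.0561 to 0.187). The order of the group means was 1w pw1, 8w pw1, 4w pw1, 1w pw2, 2w pw1 and 0w for Ly6e, and the libraries of 1w pw1 did not overlap with those of 8w pw1, while each later neighbour in the order overlapped with the next. For Ly6c1 the gap between the first and the second in the order, again 1w pw1 and 8w pw1, was also the one without overlap. By plain library total these groups overlapped for both genes. For Ly6e, 1 library at 1w pw1 held 231 CPM and 1 at 8w pw1 held 271 CPM. For Ly6c1 these values were 24.9 and 27.6 CPM. The share of all genes with such a gap is not given here, and the pairs were set by ranking these same means. For Ly6a each neighbour in the order overlapped with the next, since 1 library at 2w pw1 reached the range of 1w pw1.

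**Figure D2:**
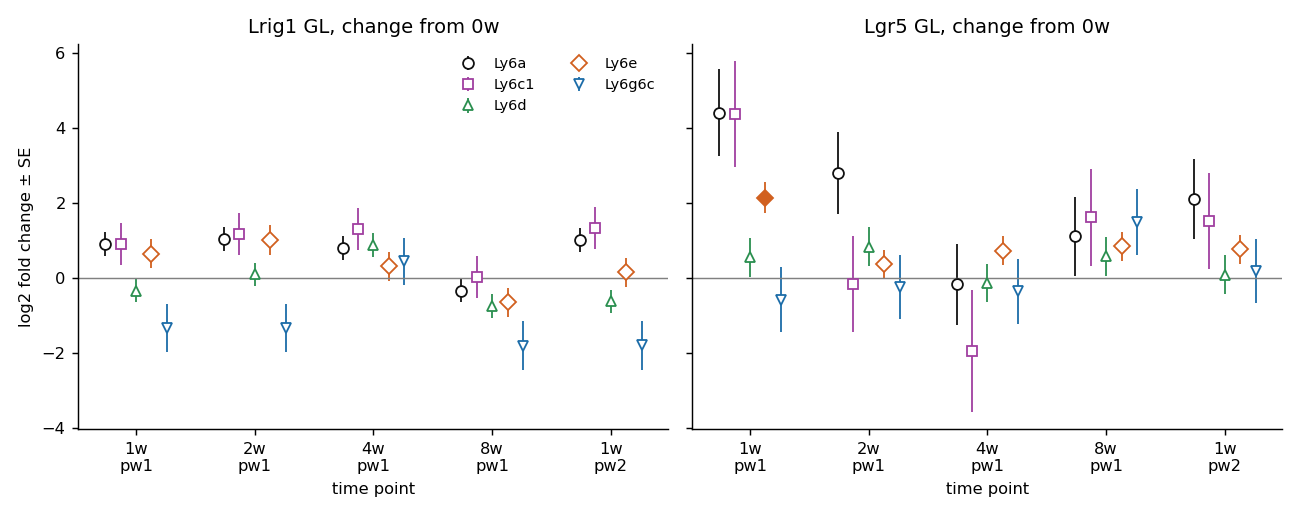
Fitted log2 fold change from 0w with its standard error for each Ly6 gene at the 5 later time points, in Lrig1 GL (left) and Lgr5 GL (right); filled symbols passed the test and open symbols did not. The only filled symbol is Ly6e in Lgr5 GL at 1w pw1 (2.15), and the Ly6a and Ly6c1 values beside it (4.41 and 4.38) have wide errors.

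In Lrig1 GL cells the same genes started higher and moved within a narrower range. Ly6a stood at 401, 463 and 678 CPM at 1w pw1, at 545, 545 and 630 CPM at 2w pw1 and at 350, 526 and 573 CPM at 4w pw1, against 162, 282 and 376 CPM at 0w. It then stood at 181, 247 and 255 CPM at 8w pw1 and at 463, 544 and 705 CPM at 1w pw2. Libraries at 1w pw1, 2w pw1 and 1w pw2 thus lay above all of 0w, those at 8w pw1 overlapped with 0w, and each library at 1w pw2 lay above each library at 8w pw1. The fitted log2 fold changes from 0w were 0.92 (SE 0.32, adjusted p = 0.279), 1.06 (SE 0.32, adjusted p = 0.265) and 1.01 (SE 0.32, adjusted p = 0.109) for 1w pw1, for 2w pw1 and, after the second wound, for 1w pw2. The step from 8w pw1 to 1w pw2 was 1.34 (SE 0.32, unadjusted p = 0.000574) with an adjusted p of 0.365 over 14306 genes, of which 1 was called (0.00699%). Ly6a, Ly6c1 and Ly6e were higher without overlap in that step, as were 9.02% of genes. Between the 2 wounds, 1w pw2 against 1w pw1, Ly6a differed by 0.09 (95% interval -0.57 to 0.75).

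Ly6c1 in Lrig1 GL stood at 18.6, 19.4 and 76.3 CPM at 0w, at 84.1, 91.4 and 106 CPM at 4w pw1 and at 90.0, 98.0 and 106 CPM at 1w pw2. Both later groups lay above all of 0w. At 8w pw1 it was back at 26.1, 31.4 and 63.8 CPM. The log2 fold changes were 1.31 (SE 0.56, adjusted p = 0.553) at 4w pw1 and 1.33 (SE 0.56, adjusted p = 0.216) at 1w pw2. Ly6e, which in Lgr5 GL was called at 1w pw1, stood in Lrig1 GL at 194, 255 and 399 CPM at 0w, 334, 392 and 619 CPM at 1w pw1 and 430, 477 and 840 CPM at 2w pw1, and did not overlap with 0w at 2w pw1 (log2 fold change 1.02, SE 0.39, adjusted p = 0.386). It stood at 165, 195 and 213 CPM at 8w pw1 and at 305, 332 and 347 CPM at 1w pw2.

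Ly6g6c in Lrig1 GL lay lower after wounding in most groups. It stood at 398, 591 and 818 CPM at 0w, and all libraries at 1w pw1 (210, 236 and 271 CPM), 2w pw1 (148, 275 and 305 CPM), 8w pw1 (115, 157 and 275 CPM) and 1w pw2 (143, 167 and 228 CPM) lay below that. The log2 fold changes were -1.33, -1.33, -1.80 and -1.79 (SE 0.64 to 0.65), with adjusted p from 0.115 to 0.486, and 6.4, 5.25, 12.8 and 10.4% of genes were lower without overlap in these comparisons. At 4w pw1 the 3 libraries stood at 82.0, 737 and 1678 CPM, the widest spread of this gene in Lrig1 GL. Without the library at 82.0 CPM, the 8w pw1 and 1w pw2 groups were both called lower than 0w (log2 fold change -1.79 in both, adjusted p = 0.0333 and 0.0401). Ly6d stood at 6844, 10617 and 11250 CPM at 4w pw1, and 1 of the 0w libraries reached that range (8044 CPM). At 2w pw1 Ly6d stood at 3752, 6159 and 6835 CPM, just below 4w pw1. By plain library total those groups overlapped, with 8052 CPM in 1 library at 4w pw1 and 8151 CPM in 1 at 2w pw1. At 8w pw1 Ly6d stood at 2732, 3041 and 3883 CPM. The markers of differentiated interfollicular epidermis summed to 13291 to 37683 CPM at 4w pw1 and 9138 to 14714 CPM at 8w pw1, and their part in the Ly6d values was not tested.

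None of the 5 genes was called in Lrig1 GL, in the time course or in any comparison of 2 time points. In the time course, where 1.63% of 14306 genes were called, the adjusted p was 0.0399 for Ly6d, whose largest log2 fold change of 0.89 was under the limit of 1, and 0.0576 for Ly6a, 0.0906 for Ly6g6c, 0.128 for Ly6e and 0.313 for Ly6c1. Beside each comparison with 0w, the share of genes called was 0.217% at 1w pw1, 0% at 2w pw1, 0.0419% at 4w pw1, 2.82% at 8w pw1 and 1.23% at 1w pw2. Against 1w pw1 no gene passed at 1w pw2, while 1269 had an unadjusted p below 0.05. Libraries above 0w without overlap made up 7.51, 6.1, 5.5 and 13.9% of genes at 1w, 2w and 4w pw1 and 1w pw2. The members that did so were Ly6a at 1w pw1, Ly6a and Ly6e at 2w pw1, Ly6c1 at 4w pw1, and Ly6a and Ly6c1 at 1w pw2. Between 1w pw2 and 1w pw1, Ly6e lay lower without overlap in its own population's scaling (log2 fold change -0.51, adjusted p = 0.748), as 8.81% of genes did, and overlapped on the scale of 36 libraries. The mitochondrial share of counts was 12.8 ± 1.77% (SD, n = 3) at 8w pw1 against 4.58 ± 1.24% (SD, n = 3) at 0w in Lrig1 GL; its part in the low 8w pw1 values was not tested. The likelihood ratio test of edgeR and DESeq2 each called Ly6a, Ly6e and Ly6g6c in the Lrig1 GL time course. The share of all genes that these tests called is not given here, so the calls have no background to be set against.

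Set against each other at each time point, a comparison added after the values were seen, Ly6a and Ly6c1 were closest between the populations at 1w pw1. Ly6a there differed by 0.01 on the log2 scale (Lrig1 GL minus Lgr5 GL, 95% interval -1.62 to 1.63), Ly6c1 by -0.41 (-2.37 to 1.56) and Ly6e by -0.15 (-0.96 to 0.66). These intervals leave room for a difference of more than 2-fold in Ly6a and Ly6c1 in either direction. Ly6d was still higher in Lrig1 GL by 1.80 (SE 0.46, adjusted p = 0.0258), the 1 member called against 2.15% of genes called higher. At 4w pw1 the differences reached 4.47 for Ly6a (SE 0.94, adjusted p = 0.00662), 6.28 for Ly6c1 (SE 1.38, adjusted p = 0.00805) and 3.69 for Ly6d (SE 0.50, adjusted p = 5.43e-05), against 1.69% of genes called higher. The Ly6c1 value rests on 0, 2 and 3 reads in the Lgr5 GL libraries. At 2w pw1 Ly6c1, Ly6d and Ly6e were called (log2 differences 4.42, 1.99 and 2.02, against 0.749% of genes), and at 8w pw1 and 1w pw2 Ly6d alone (1.44 and 2.04, against 6.64 and 4.06% of genes). Several of these calls were near the threshold. Leaving out 1 library ended the Ly6d call in 5 cases at 1w pw1 (adjusted p from 0.0512 to 0.0992), 3 at 2w pw1 (0.0519 to 0.134), 5 at 8w pw1 (0.054 to 0.168) and 1 at 1w pw2 (0.0551), and at 2w pw1 the Ly6c1 call in 4 cases (0.0581 to 0.156) and the Ly6e call in 2 (0.0501 and 0.0719). The calls at 4w pw1 held with any library left out. Ly6e was closest between the populations at 8w pw1, with a log2 difference of -0.05 (95% interval -0.87 to 0.76).

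**Figure D3:**
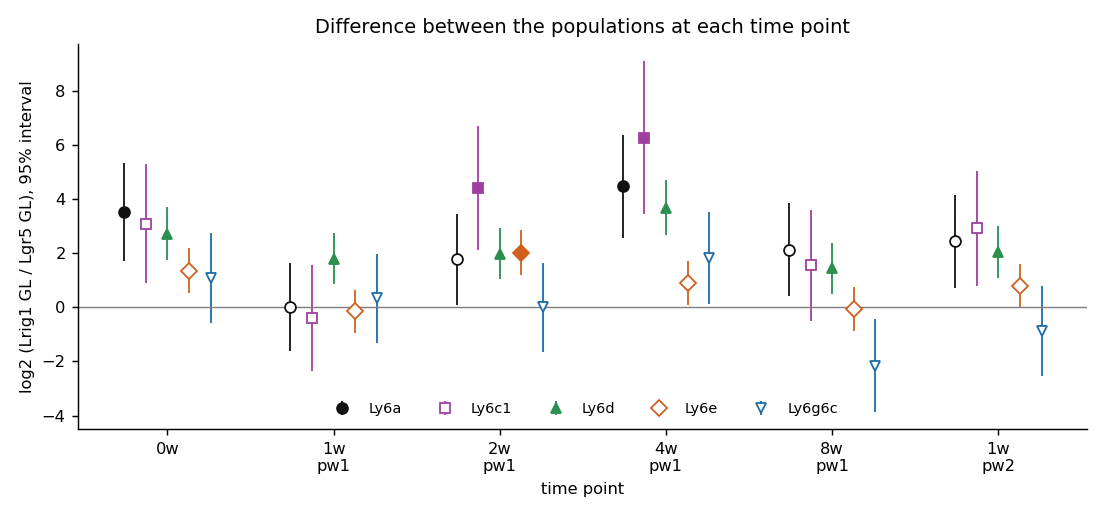
Fitted log2 ratio of Lrig1 GL to Lgr5 GL with its 95% interval for each Ly6 gene at each time point; filled symbols passed the test. Ly6d is filled at all 6 time points, although at 4 of them leaving out 1 library could end the call. Ly6a, Ly6c1 and Ly6e lie at about 0 at 1w pw1. At 8w pw1 Ly6e lies at about 0 as well (-0.05), and Ly6g6c lies below 0 (-2.15).

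Averaged over the 6 time points, Ly6a was higher in Lrig1 GL by 2.39 (SE 0.35, adjusted p = 3.92e-06), Ly6c1 by 2.98 (SE 0.45, adjusted p = 6.53e-06) and Ly6d by 2.28 (SE 0.19, adjusted p = 5.05e-10). Ly6e was higher by 0.81 (SE 0.16, adjusted p = 0.000302), under the fold limit, and Ly6g6c differed by 0.04 (95% interval -0.63 to 0.71). Thus 3 of 5 members were called higher in Lrig1 GL, against 6.91% of genes. The log2 change from 0w to 1w pw1 in Lrig1 GL minus that in Lgr5 GL was -3.52 for Ly6a (SE 1.17, adjusted p = 0.161), -3.50 for Ly6c1 (SE 1.43, adjusted p = 0.245) and -1.51 for Ly6e (SE 0.57, adjusted p = 0.210), and this difference was called for none of them, with 0.0495% of genes called. The difference between populations in how 1w pw2 differed from 1w pw1 was 2.44 for Ly6a (SE 1.14, adjusted p = 0.370), 3.33 for Ly6c1 (SE 1.40, adjusted p = 0.301) and 0.95 for Ly6e (SE 0.56, adjusted p = 0.5), with 0.0557% of genes called. In the changes to 8w pw1 and to 1w pw2 from 0w the members were not called either, with 1.11 and 0.155% of genes called.

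At 8w pw1 Ly6g6c lay on opposite sides of its 0w level in the populations. In Lgr5 GL it stood at 449, 839 and 1135 CPM at 8w pw1, above all 0w libraries (199, 293 and 359 CPM), with a log2 fold change of 1.5 (SE 0.88, adjusted p = 0.939). In Lrig1 GL each 8w pw1 library lay below each 0w library, with a log2 fold change of -1.80 (SE 0.65, adjusted p = 0.115). The test of the difference itself gave -3.23 (SE 1.17, unadjusted p = 0.00939, adjusted p = 0.144), so it did not pass over 16153 genes. With surrogate variables in the number sva estimated it was 0.22 (adjusted p = 0.991), and the change in Lrig1 GL was then -0.27 (adjusted p = 0.907). A week after the second wound Ly6g6c in Lgr5 GL spread from 64.6 through 275 to 646 CPM.

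Levels of Ly6a and Ly6c1 followed each other from library to library. On log2(CPM + 1) values, Pearson's r was 0.792 (Spearman's rho 0.730) over the 18 Lrig1 GL libraries and 0.715 (rho 0.768) over the 18 Lgr5 GL libraries, and 0.658 and 0.571 without the 2 libraries farthest from the median of Ly6a. After each group's mean was taken away, r was 0.607 and 0.454. For Ly6a and Ly6e r was 0.583 and 0.430, and after removal of group means 0.071 and -0.122. Ly6g6c had a negative r with Ly6a in both populations (-0.235 and -0.402), and Ly6d and Ly6g6c had r of 0.607 in Lrig1 GL and 0.156 in Lgr5 GL. These are descriptions: libraries share time points and depth, and Ly6a and Ly6c1 also share sequence.

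**Figure D4:**
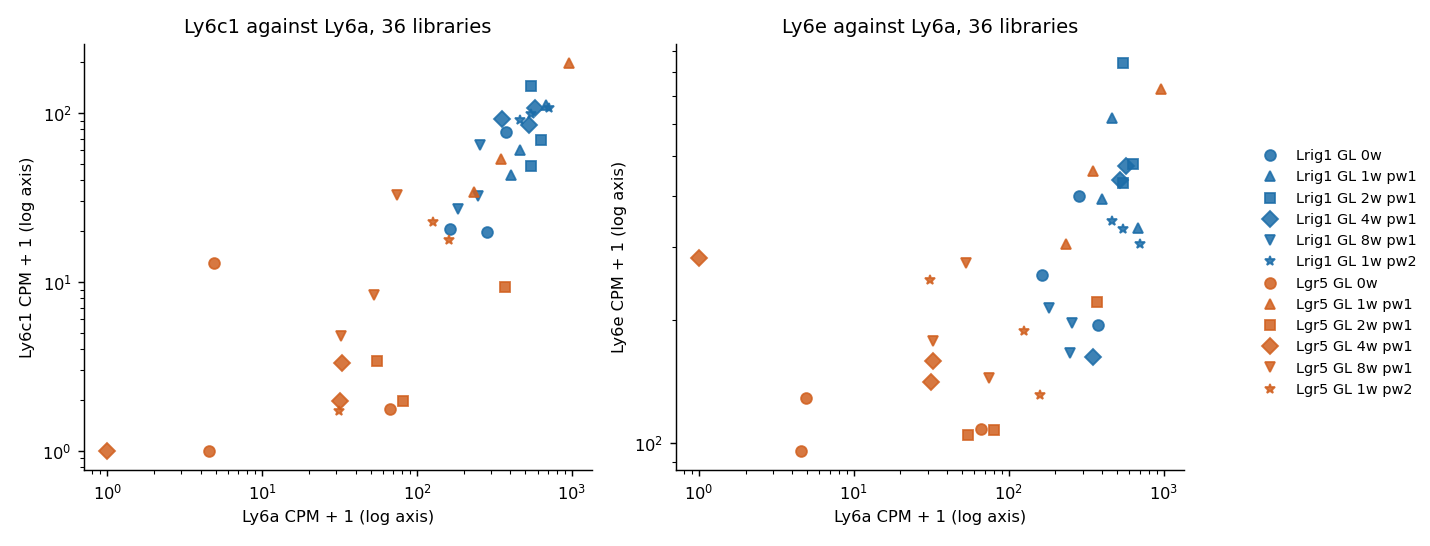
Ly6c1 (left) and Ly6e (right) against Ly6a in 36 libraries, CPM + 1 on log axes; colour gives the population and symbol the time point. Ly6c1 and Ly6a lie along 1 band in both populations (r 0.792 and 0.715), and the Lgr5 GL libraries of 1w pw1 (triangles) sit among the Lrig1 GL libraries.

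The genes most like each member over 18 libraries were taken from those with a mean of at least 10 CPM (10246 in Lrig1 GL, 9891 in Lgr5 GL). For Ly6d in Lrig1 GL they included Krtdap, a protein of differentiating keratinocytes (r = 0.935), and Lgals3, which encodes galectin-3 (r = 0.928). In Lgr5 GL they were Gltp, a glycolipid transfer protein (r = 0.857), Calm4, a calmodulin-like protein of differentiated epidermis (r = 0.811), and Klf5 (r = 0.786). For Ly6a they were Fabp5, the epidermal fatty acid-binding protein (r = 0.887), Gm6166 (r = 0.876) and Fbxo36 (r = 0.869) in Lrig1 GL, and Bhlhe40 (r = 0.852), Sox15 (r = 0.824) and Dis3 (r = 0.811) in Lgr5 GL. Ly6c1 was most like BC117090 and Stfa1, both of the stefin A family of cysteine protease inhibitors (r = 0.896 each), and Ada (r = 0.891) in Lrig1 GL, and Gm13443, Serpinb1a and Idh3g in Lgr5 GL (r = 0.796 to 0.826). Ly6g6c was most like Psapl1, Cdkn1a and Gltp in Lrig1 GL (r = 0.849 to 0.880) and Epcam, Pdk2 and Dmpk in Lgr5 GL (r = 0.853 to 0.880). Ly6e was most like Eif4ebp1, Mrpl34 and Bin3 in Lrig1 GL (r = 0.821 to 0.852), and the pseudogenes or unnamed models Rpl14-ps1, Gm9843 and Gm12715 in Lgr5 GL (r = 0.872 to 0.912). No gene was on both lists of the same member.

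Of 40 other family genes listed, 22 were in the Lrig1 GL table and 24 in the Lgr5 GL table, 14 and 20 of them were tested, and none was called in either time course. At 1w pw1 their median log2 fold change was -1.14 (Lrig1 GL) and 0.12 (Lgr5 GL), beside -0.05 and -0.08 over all genes. The closest copies of Ly6a and Ly6c1 were low: Ly6c2 reached 37 reads, Ly6f 30 and Ly6i 29 in any Lgr5 GL library. In Lgr5 GL, Ly6c2 stood at 0 to 0.918 CPM at 0w and 7.08 to 10.8 CPM at 1w pw1 (log2 fold change 4.51, adjusted p = 0.113), and Ly6i had a log2 fold change of 5.42 (adjusted p = 0.0916). Both share sequence with Ly6a or Ly6c1 (Ly6i holds 2.39% of the 50-base words of Ly6a), so the source of these reads cannot be told apart. Lypd3, a GPI-anchored protein of migrating and suprabasal keratinocytes, had a median of 437 CPM in Lrig1 GL and 478 CPM in Lgr5 GL, with adjusted p values of 0.201 and 0.282 in the time courses. Cd59a, which protects cells from complement, had a log2 fold change of -1.84 at 1w pw1 in Lrig1 GL (unadjusted p = 0.00438, adjusted p = 0.211). Averaged over time points, 5 of 20 tested family genes were called higher in Lrig1 GL and 4 lower, against 6.91 and 12.4% of genes. Among those called higher, Ly6c2, Ly6g and Ly6f had medians of only 2.35, 3.08 and 2.00 CPM in Lrig1 GL. The fit gave no usable SE for Slurp2, Ly6g and Ly6f, called higher, or for Plaur, called lower. These counts therefore rest in part on genes near the floor and do not describe the family.

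Of 31 genes of GPI anchor synthesis and attachment, 29 were tested in each population, and the median log2 fold change at 1w pw1 was -0.09 (Lrig1 GL) and -0.17 (Lgr5 GL), beside -0.05 and -0.08 over all genes. In the time courses Pigp, of the first enzyme complex of GPI synthesis, was the 1 list member called (Lrig1 GL, log2 fold change 1.99 at 8w pw1, adjusted p = 0.0391). Of 39 interferon response genes, 24 were tested in Lrig1 GL and 30 in Lgr5 GL, with medians of -0.22 and 0.14 at 1w pw1. Ifitm3, an antiviral membrane protein, was called in both time courses, with largest log2 fold changes of 1.28 at 2w pw1 in Lrig1 GL (adjusted p = 0.0307) and 2.94 at 1w pw1 in Lgr5 GL (adjusted p = 0.00747). It was the only gene of that list called in either time course. The summed level of the list in Lgr5 GL was 706 to 872 CPM at 0w and 955 to 1259 CPM at 1w pw1. In Lrig1 GL the sum was 835 to 1078 CPM at 0w and 710 to 955 CPM at 1w pw1. The part of Ifitm3 in these sums was not tested.

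Of the cell identity lists, the Lgr5 GL time course called 2 of 8 keratinocyte markers, 2 of 10 lower follicle and bulge markers and 1 of 10 markers of differentiated interfollicular epidermis, against 1.13% of all genes. That of Lrig1 GL called 1 of 8 keratinocyte and 1 of 7 sebaceous gland markers, against 1.63%. Krt15, a keratin of bulge and basal cells, fell, with its largest change at 1w pw1 in Lrig1 GL (log2 fold change -3.28, adjusted p = 0.0329) and at 4w pw1 in Lgr5 GL (-2.27, adjusted p = 0.00201). Krt14, the basal keratin, rose in Lgr5 GL at 1w pw1 by 1.53 (SE 0.29, adjusted p = 0.0197), and the bulge factor Sox9 fell by 1.33 there (SE 0.30, adjusted p = 0.0380). All 10 lower follicle and bulge markers had negative values at 1w pw1 in Lgr5 GL, with a median of -1.40, and their sum went from between 3983 and 7619 CPM at 0w to between 1368 and 4891 CPM. This list shares a gene, Postn, with the upper follicle list, so the lists are not separate. Fgf18 (-3.52 at 4w pw1) and Sbsn (-1.73 at 4w pw1) were called in the Lgr5 GL time course, and Pparg, the sebocyte regulator, in that of Lrig1 GL (-4.79 at 4w pw1). The summed upper follicle markers spread from 4019 to 11814 CPM at 0w and from 3107 to 15169 CPM at 1w pw1 in Lgr5 GL, with overlapping ranges. Sebaceous gland markers summed to 347 to 483 CPM and 315 to 661 CPM in those groups.

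Promoter sequence was at hand in RefSeq tables (GRCm38.p6) for Ly6c1 and Ly6g6c alone, and is shown for these members only for that reason. The 250 bases before a start site of each gene are given 5′ to 3′ on the gene's strand, chr15:75048838-75049087 for Ly6c1 and chr17:35067075-35067324 for Ly6g6c, with TATAAA in capitals.
Ly6c1 promoter: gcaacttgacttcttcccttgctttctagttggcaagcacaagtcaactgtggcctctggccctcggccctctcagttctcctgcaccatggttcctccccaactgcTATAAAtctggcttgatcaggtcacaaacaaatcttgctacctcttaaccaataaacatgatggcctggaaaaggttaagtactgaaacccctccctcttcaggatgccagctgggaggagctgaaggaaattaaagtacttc
Ly6g6c promoter: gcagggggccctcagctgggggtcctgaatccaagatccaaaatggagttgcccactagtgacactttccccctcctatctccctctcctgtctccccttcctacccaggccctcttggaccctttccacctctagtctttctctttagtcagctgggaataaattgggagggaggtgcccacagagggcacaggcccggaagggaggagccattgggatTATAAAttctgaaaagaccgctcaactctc
TATAAA lies 143 bases before the start shown for Ly6c1 and 30 bases before that of Ly6g6c. It is held by 12.4% of the 32851 promoter windows of this length. CCAAT on either strand, held by 33.8%, lies at 95 bases in Ly6c1 and at 87 and 38 bases in Ly6g6c. A second start listed for Ly6c1, with the window chr15:75048664-75048913, is not shown and has neither motif. Searches on both strands for an interferon-stimulated response element (in 2.98% of windows), a gamma-activated site (TTCNNNGAA, in 7.02%) and an AP-1 site (TGANTCA, in 6.75%) found no match in these windows.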

How the data were processed

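Raw read counts per gene were deposited by the authors as 1 table per population; per the labels and the study's methods, reads were trimmed (Trim Galore 0.5.0), aligned to GRCm38/mm10 (HISAT2 2.2.01) and counted over exons by gene name (featureCounts 1.6.12), without molecular identifiers or strand. No p-values or normalized values were used from the deposited tables, and 0 columns were left out. Counts were tested with edgeR 4.0.16 (R 4.3.3): genes were kept by filterByExpr (minimum count 10), scaled by trimmed means, and tested by quasi-likelihood F-tests, with p-values adjusted over all genes kept (Benjamini-Hochberg). Each population was fitted on its 18 libraries, and differences between populations on all 36. Fold changes used a prior count of 0.125. SE is the unshrunken change divided by the square root of F. Floors and intervals of counts cover counting error only.

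The members and lists were chosen with earlier results of these data known. Named genes were the 5 members, the 3 genes with the highest Pearson's r to each member per population at a mean of at least 10 CPM, and up to 4 called genes per list by smallest p; other family genes and values were chosen after they were seen. One gene that this rule names is not reported here. For 15 of 36 libraries the column names matched a numbered sample, and the others were matched to their group alone. Same-numbered libraries did not deviate together (mean r 0.004 in Lrig1 GL and -0.016 in Lgr5 GL), so no pairing was used. Alternatives were a likelihood ratio test, DESeq2 1.42.0, limma 3.58.1 voom with quality weights, DESeq2 or upper-quartile scaling, 2 other filters, surrogate variables (sva 3.50.0), removal of Gm12415 or of the GC trend, a prior count of 2, thinned Lgr5 GL counts, CPM by library total and each library left out. The code was tested on simulated data.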

Additional observations from a re-analysis of the deposited data

Results flagged for a closer look

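Ly6g6c differed in direction between the 2 populations from 0w to 8w pw1. All 3 Lrig1 GL libraries at 8w pw1 lay below all 3 at 0w (log2 fold change -1.80), and all 3 Lgr5 GL libraries lay above (1.5). The test of the difference between the changes gave -3.23 (SE 1.17, adjusted p = 0.144 by edgeR's quasi-likelihood test), so the difference did not pass over all genes. Over all genes tested, 12.8% were lower without overlap in Lrig1 GL and 6.49% higher in Lgr5 GL. The Lrig1 GL value ran from -1.92 to -0.27 over the other settings and the Lgr5 GL value from 1.08 to 1.57, and with the estimated number of surrogate variables the difference was 0.22 (adjusted p = 0.991). At 8w pw1 the mitochondrial share of counts averaged 12.8% (Lrig1 GL) and 3.05% (Lgr5 GL), and 40.9% of all genes tested did not overlap between the populations at that time; the part of either in the result was not tested.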

How the results depend on the processing

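Of the member calls, only that of Ly6a at 0w between populations held under every other setting. Leaving out 1 library ended it in 4 cases. In Lrig1 GL, where no member was called, the time course gave 3 (likelihood ratio), 3 (DESeq2) and 1 (estimated surrogate variables); DESeq2 also gave 3 calls over the later time points against 0w and 1 for 1w pw2 against 8w pw1. In Lgr5 GL, where 1 was called, the time course gave 3 (likelihood ratio), 3 (DESeq2) and 0 (limma-voom, no filter, 2 and estimated surrogate variables), and the later time points against 0w gave 3 and 3 (likelihood ratio and DESeq2: Ly6a, Ly6c1 and Ly6e) and 0 with 2 or estimated surrogate variables. Both count tests called 1 member, Ly6e, for 1w pw2 against 1w pw1 (Lgr5 GL). Between populations at 0w they called 4 and 4, and estimated surrogate variables left 1 of 2; over the mean of time points those left 0 of 3, and at the later time points 2 surrogate variables left 5 and the estimated number 0 of 9. That number was 9 in the fit of 36 libraries. With it Ly6g6c at 0w changed sign to -0.26. The cause was not tested. The remaining 127 of 150 counts were within 1.5 times. A count of 0 beside 0 meets that limit by rule, and many of them were such. Shares of all genes called under the other settings are not given here, so the member counts have no background to be set against.

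With 1 library left out, called members ran from 0 to 2 in the Lrig1 GL time course (2, Ly6d and Ly6g6c, without the third listed 4w pw1 library), 0 to 2 over its later time points, 0 to 1 in the Lgr5 GL time course, 0 to 2 over its later time points, 1 to 3 at 0w between populations, 3 to 3 over the mean of time points, 6 to 11 at the later time points and 0 to 1 in the differences between changes (1, Ly6a, without the Lgr5 GL 0w library at 65.4 CPM), and were 0 to 0 for 1w pw2 against 1w pw1 or 8w pw1 in both populations. A direction was given to 46 member tests, those that were called or whose libraries did not overlap. None of their 1242 values with a library left out changed sign. That choice of tests made this nearly certain, so it says little of how firm the directions are. Under other settings 1 of 584 values changed sign.

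A fit with replicate number as a block was possible for numbered libraries only; for 1w pw2 against 1w pw1 it called 0 members in Lrig1 GL and 0 in Lgr5 GL, and since the numbers do not pair the samples it says nothing of the effects. Upper-quartile scaling moved the median of all genes between populations at 8w pw1 by -0.21 (log2), and Ly6d there was then not called (1.23, adjusted p = 0.0687). Depth limits Ly6c1 most: 5 Lgr5 GL libraries held at most 3 reads.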
